A study of Mus musculus with 6 samples.

Results

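The genes described here are 35 markers of macrophages, neutrophils and dendritic cells and genes of MHC class II antigen presentation, measured in CD8+ T cells sorted from tumor and from spleen. They were taken by symbol from a table of 55335 gene identifiers. All 35 had enough counts to be tested, among 19783 genes that were. The study compared P14 TIL, the P14 CD8+ T cells recovered from B16-GP33-41 tumors (3 libraries), with P14 Sp, the same donor cells recovered from spleen (3 libraries). P14 cells carry a transgenic T cell receptor for the peptide GP33-41, which this line of the B16 mouse melanoma presents, so a single receptor of known specificity stands for the T cell response. All 6 samples are labelled P14 TCR transgenic, strain C57BL/6 and 10-week-old, and all had the donor cells transferred on day 11 after the tumor cells were implanted. Tumor-bearing mice gave both tissues, and both were mashed and sorted for donor P14 CD8+ T cells by fluorescence. Leukocytes from the tumor alone passed a Percoll gradient before the sort, and the sample codes of all tumor libraries share an ending that differs from the spleen ending, so neither can be told apart from tissue. The labels do not say how donor cells were told from host cells, nor that each library of a tissue is a different mouse. The p-values therefore measure only how these samples spread, and that spread may be technical.

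MHC class II molecules are pairs of an alpha and a beta chain that present peptides from outside the cell to CD4+ T cells. B cells, dendritic cells and macrophages make them, while resting mouse T cells do not. The chains are held by the invariant chain (Cd74) until the H2-DM pair exchanges its remnant for a peptide, and their genes depend on the coactivator Ciita, which acts through factors bound to the X and Y boxes of their promoters. In the spleen, red pulp macrophages clear blood cells, and macrophages there and in tumors make C1q, the recognition unit of the classical complement pathway. A gate for donor P14 CD8+ T cells should leave all of these cells out.

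Total counts ran from 35095261 to 38263483 per library, so that a count of 0 allows up to 0.0855 CPM, a unit in which each count is scaled to its library's total. The sorted cells carried T cell transcripts in both tissues. The 14 T cell identity genes summed to 5450 to 5635 CPM in P14 TIL and 6093 to 6193 CPM in P14 Sp, and Cd8a, a chain of the CD8 coreceptor, averaged 645 and 364 CPM. Of these 14, 6 were lower in tumor, 3 were higher and 5 were not called, with a median log2 fold change of -0.08. All genes tested gave 35.9% lower and 34.8% higher. Cd4, the coreceptor of the other T cell lineage, stood at 1.07 ± 0.293 CPM in P14 TIL and 7.52 ± 0.753 CPM in P14 Sp (SD, n = 3 each). B cell genes differed far more between the tissues. All 16 listed were lower in tumor, at a median log2 fold change of -8.07, although 10 had enough counts for the test in spleen alone, and their sum was 68.9 to 74.9 CPM in P14 TIL against 769 to 788 CPM in P14 Sp. Of the tumor sum, Cd72 alone gave 55.8 CPM. Cd79a, a signaling chain of the B cell receptor, stood at 0.603 CPM in tumor against 118 CPM in spleen, and Cr2 had no count in any tumor library. The 3 melanoma genes of 8 that could be tested included 1 higher in tumor (Dct) and 1 lower (Pmel). The 8 summed to 9.76 to 10.9 CPM in P14 TIL and 19.4 to 21.4 CPM in P14 Sp. Pmel had the highest CPM of the 8 in both tissues, so the sums do not stand for the melanoma genes as a set.

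Transcripts of myeloid cells and of MHC class II were present in both sorted populations and scarcer in the tumor one. Of the 35 genes, 33 were lower in P14 TIL and 2 were higher, namely Arg1 and Cd80 (edgeR quasi-likelihood F-test, adjusted p under 0.05). Over all genes tested, 35.9% were called lower and 34.8% higher. Against a null of a 2-fold change, 30 were lower and Arg1 was higher, where 9.42% and 5.87% of all genes were so called. The 3 that were lower without passing that second test were Cd68, Cd14 and H2-DMa. For all 35 genes, the 3 tumor libraries lay entirely on one side of the 3 spleen libraries, 33 below and 2 above, and 39.4% and 35.1% of all genes tested were separated in these ways. The median log2 fold change of the 35 was -4.83, or -4.39 with the 2 genes at 0 in tumor set to their bound, while the median over all genes tested was -0.02 and their 5th to 95th percentile ran from -2.26 to 1.47. These counts and medians describe the list only, because 14 of the 35 reached the filter on low counts in spleen alone and Arg1 in tumor alone. In bulk RNA, fewer cells of a type and less RNA per cell cannot be told apart.

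**Figure D1:**
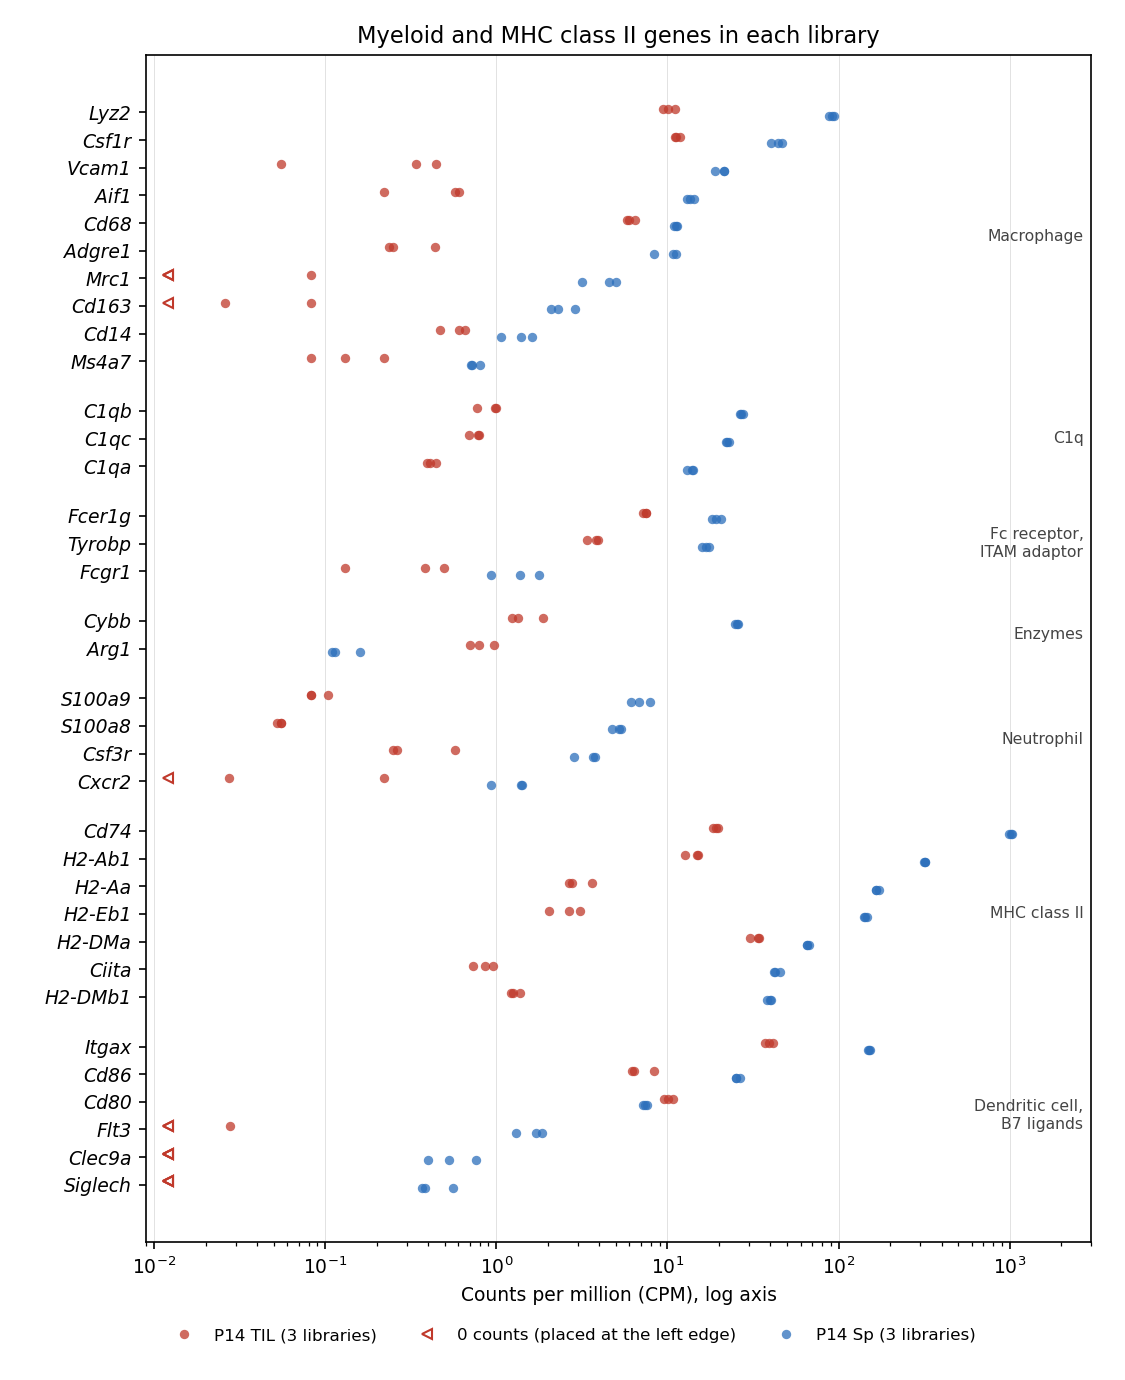
Level of each gene in each library, in CPM on a log axis, with P14 TIL in red and P14 Sp in blue (3 libraries each, 1 point per library) and genes grouped by role. Open triangles at the left edge are libraries with 0 counts. Red points lie left of blue points in every row except those of Arg1 and Cd80, and Cd74 in spleen is farthest right.

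As a share of all counts, the 35 genes held 0.0177%, 0.0179% and 0.0173% in the tumor libraries and 0.229%, 0.234% and 0.233% in the spleen libraries. The spleen mean was thus 13.2-fold the tumor mean, or 11.8-fold when the counts were set against those of 13 T cell identity genes (the 14 without Cd4). Cd74 alone made up 43.6% of the counts of the 35 genes in P14 Sp and 10.9% in P14 TIL. By role, the spleen share exceeded the tumor share 30.2-fold for C1q, 28.4-fold for neutrophil genes, 24.2-fold for MHC class II, 11.1-fold for macrophage enzymes, 6.75-fold for macrophage lineage genes, 3.3-fold for dendritic cell markers with B7 ligands and 3.29-fold for Fc receptor genes. Itgax held most of the dendritic cell group, averaging 39.4 CPM of a summed 55.8 to 57.2 in P14 TIL. In P14 Sp it averaged 151 CPM of a summed 185 to 188. Among single genes that were lower, 8 differed by under 4-fold, 5 by 4 to 16-fold and 13 by 16 to 64-fold. The other 7 had larger fitted differences, but the best covered of them, Vcam1, had only 31 counts over the 3 tumor libraries. For the 26 genes with a mean of 10 or more counts in tumor, the median coefficient of variation was 11.2% in P14 TIL and 3.31% in P14 Sp.

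**Figure D2:**
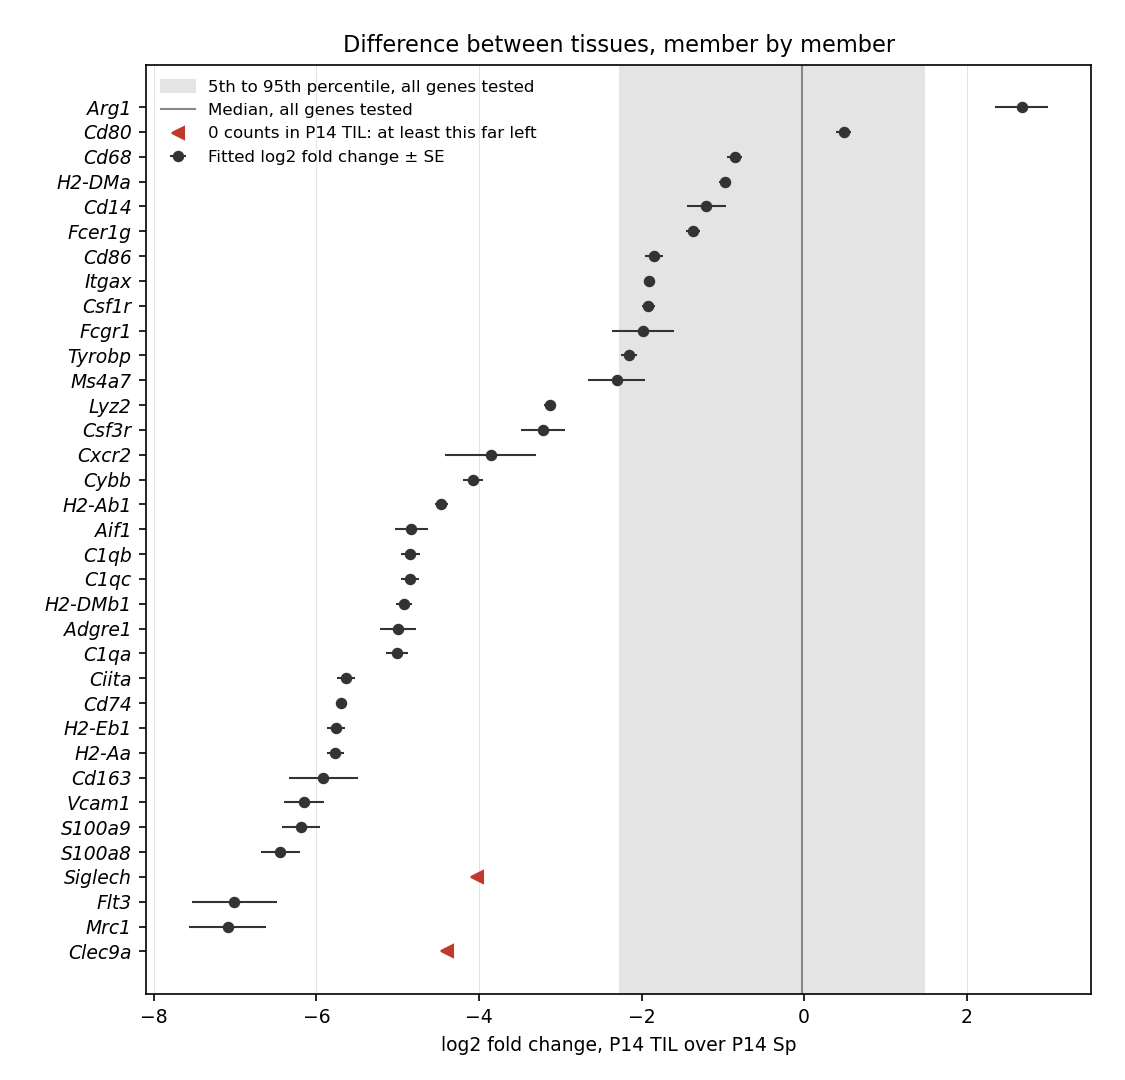
Log2 fold change of each gene, P14 TIL over P14 Sp, with its approximate standard error; the grey band spans the 5th to 95th percentile of all genes tested (-2.26 to 1.47) and the line marks their median of -0.02. Siglech and Clec9a had 0 counts in tumor and are drawn as triangles at their bound. Arg1, at 2.68, lies to the right of the band, and Cd80, at 0.49, inside it.

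The promoters of the MHC class II genes are shown first, because these genes held most of the counts of the 35 in spleen and are known to share an X box and a Y box. RefSeq promoters (build GRCm38.p6, 250 bases before to 50 after an annotated start) were matched for 24 of the 35 genes, 4 of them MHC class II genes. Each was searched on both strands for ATTGG (core of the Y box), AGCAAC (a part of the X1 box) and GAGGAA (core of sites for PU.1, a myeloid transcription factor encoded by Spi1). A match to one run can share end bases with a match to another. The 250 bases before the start are printed 5′ to 3′ on the strand of the gene, with every match to any of these in capitals, for 3 genes that differed by over 30-fold between tissues and for H2-DMa, which differed by 1.97-fold. They lie at chr17:34287824-34288073 on the minus strand (H2-Aa) and, on the plus strand, at chr17:34305617-34305866 (H2-Eb1), chr17:34152941-34153190 (H2-DMb1) and chr17:34122582-34122831 (H2-DMa, the first of 2 starts).
H2-Aa: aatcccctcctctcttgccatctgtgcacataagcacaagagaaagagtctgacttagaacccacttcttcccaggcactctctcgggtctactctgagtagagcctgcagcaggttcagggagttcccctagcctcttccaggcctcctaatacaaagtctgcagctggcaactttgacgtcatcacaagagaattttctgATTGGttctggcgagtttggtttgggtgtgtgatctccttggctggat
H2-Eb1: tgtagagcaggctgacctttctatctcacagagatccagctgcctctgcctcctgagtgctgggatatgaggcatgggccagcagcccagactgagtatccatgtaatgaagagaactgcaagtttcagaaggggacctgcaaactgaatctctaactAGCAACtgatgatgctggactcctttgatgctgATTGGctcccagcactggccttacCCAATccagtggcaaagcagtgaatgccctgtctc
H2-DMb1: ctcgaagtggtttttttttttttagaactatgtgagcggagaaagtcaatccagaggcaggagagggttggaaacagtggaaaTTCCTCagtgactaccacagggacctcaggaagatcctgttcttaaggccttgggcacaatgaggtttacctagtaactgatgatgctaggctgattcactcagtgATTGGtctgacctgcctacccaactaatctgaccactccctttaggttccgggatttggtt
H2-DMa: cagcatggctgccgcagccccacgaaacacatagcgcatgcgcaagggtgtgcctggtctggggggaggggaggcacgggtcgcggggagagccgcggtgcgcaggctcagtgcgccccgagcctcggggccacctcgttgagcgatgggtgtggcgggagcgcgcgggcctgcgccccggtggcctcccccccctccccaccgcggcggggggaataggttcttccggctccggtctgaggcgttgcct
The run ATTGG stands on the strand of the gene 48 bases before the start of H2-Aa, 59 before that of H2-Eb1 and 61 before that of H2-DMb1. H2-Eb1 also holds AGCAAC 92 bases before its start and ATTGG on the other strand, printed as CCAAT, 35 bases before it. H2-DMb1 holds GAGGAA on the other strand, printed as TTCCTC, at 167 bases. The first H2-DMa window holds none of the 3 runs, and the second holds ATTGG at 198 bases. Both windows lie inside the H2-DMa model (34119541 to 34139101), which overlaps Brd2 on the other strand. No other start of H2-DMa was searched, so these windows do not show that the gene lacks a Y box. Within 40 to 70 bases of the start, a span set after these positions were seen, ATTGG on the strand of the gene occurred in 3 of the 5 MHC class II windows and in 4.15% of 32851 windows of all genes. Anywhere in the window, ATTGG occurred in 11 of the 24 genes (45.8%) against 41.1% of 27025 genes in the table, AGCAAC in 6 (25% against 16.7%) and GAGGAA in 13 (54.2% against 31.3%). A match is a description of the letters and not a bound site.

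**Figure D3:**
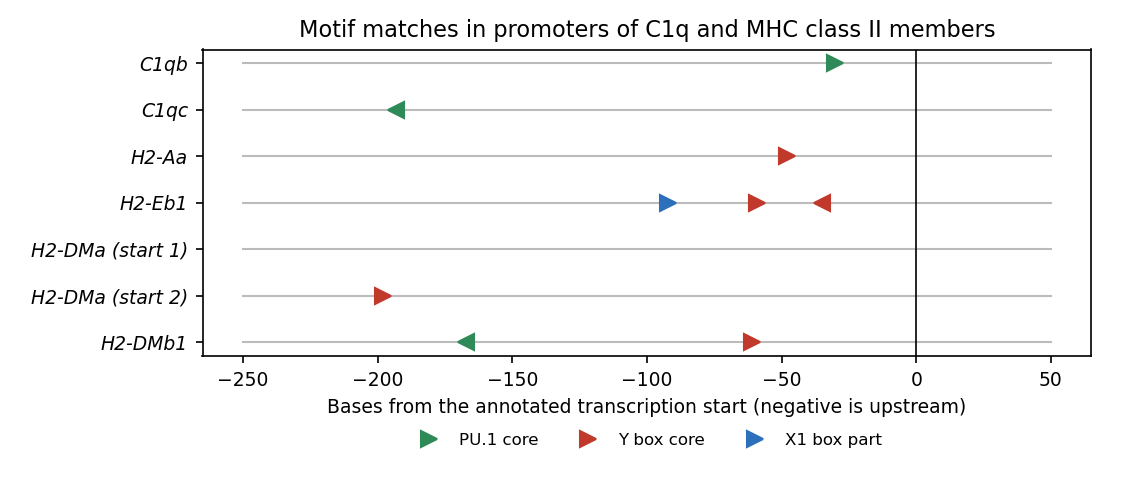
Positions of the 3 motifs in RefSeq promoters of C1q and MHC class II genes, in bases from the annotated start (negative is upstream); right-pointing marks lie on the strand of the gene and left-pointing marks on the other. H2-Aa, H2-Eb1 and H2-DMb1 carry the Y box core within 48 to 61 bases of the start, and the first start of H2-DMa carries no mark. Both H2-DMa windows lie inside its gene model, and no other start of it was searched.

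The invariant chain gene Cd74, on chromosome 18 (60803848 to 60812652, mm10), was the most abundant of the 35 per kilobase of exon in both tissues, at 11.4 ± 0.44 CPM per kilobase in P14 TIL and 603 ± 11 in P14 Sp. In plain CPM its values were 19.9, 18.4 and 19.3 in the tumor libraries and 993, 1029 and 1013 in the spleen libraries. The tissues were far apart and the libraries of each close together, with a log2 fold change of -5.69 (SE 0.07), a 51.8-fold difference, at an edgeR adjusted p of 2.6e-13. The classical alpha chain gene H2-Aa (chromosome 17, 34282744 to 34287823) stood at 2.66, 3.61 and 2.76 CPM in tumor and 166, 165 and 171 CPM in spleen. The beta chain gene of the other class II isotype, H2-Eb1 (chromosome 17, 34305867 to 34316674), stood at 3.07, 2.67 and 2.04 CPM in tumor and 142, 148 and 142 CPM in spleen. Both fell by nearly the same factor, with log2 fold changes of -5.77 (SE 0.10, edgeR adjusted p = 3.4e-12) and -5.76 (SE 0.11, adjusted p = 9.7e-12). Ciita, the coactivator of the whole group, was at 0.960, 0.732 and 0.856 CPM in tumor and 41.7, 45.4 and 42.7 CPM in spleen, a log2 fold change of -5.64 (SE 0.11). H2-DMb1, the beta chain of the peptide exchange factor, averaged 1.28 ± 0.081 CPM in tumor and 39.6 ± 1.04 CPM in spleen, a log2 fold change of -4.92 (SE 0.10). Reads of H2-DMb1 and its near-identical copy H2-DMb2 may be split by the counting, so their separate values are uncertain.

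The other class II chain and its peptide exchange partner departed from this 30 to 54-fold range. H2-Ab1, the beta chain that pairs with H2-Aa, stood at 15, 14.8 and 12.7 CPM in tumor and 317, 321 and 320 CPM in spleen. It was 22.0-fold lower in tumor (log2 -4.46, SE 0.08, edgeR adjusted p = 4.2e-12). H2-DMa, the alpha chain of the exchange factor, stood at 34.0, 34.2 and 30.4 CPM in tumor and 65.3, 65.5 and 66.9 CPM in spleen. Its difference of 1.97-fold (log2 -0.98, SE 0.07, adjusted p = 2.3e-07) was the smallest of the 7 MHC class II genes and left it the second most abundant of the 35 per kilobase in tumor, at 9.52 ± 0.62. The model of H2-DMa overlaps Brd2 on the other strand, which stood at 211 CPM in tumor against 273 CPM in spleen. H2-Eb1 and Ciita also overlap models on the other strand, and because no source used here gives the strand setting of featureCounts, reads in such overlaps cannot be told apart.

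Ratios of counts within a library show which members kept step between tissues. H2-Aa counts were 0.134 to 0.196 of Cd74 counts in P14 TIL and 0.160 to 0.169 in P14 Sp. H2-Eb1 counts were 0.106 to 0.155 of Cd74 in tumor and 0.140 to 0.143 in spleen, and Ciita counts were 0.0398 to 0.0483 and 0.0420 to 0.0441. These 3 ranges overlapped between tissues. H2-Ab1 counts, by contrast, were 0.661 to 0.808 of Cd74 in tumor and 0.312 to 0.319 in spleen. For H2-DMb1 the ratio was 0.0631 to 0.0691 in tumor and 0.0379 to 0.0401 in spleen, and for H2-DMa it was 1.58 to 1.86 and 0.0636 to 0.0661. B cells also make MHC class II, and their listed genes were lower in tumor as well, as given above. In the sorted cells, the B cell list summed to 68.9 to 74.9 CPM in P14 TIL and 769 to 788 in P14 Sp. The part of the lower B cell genes in the lower MHC class II counts was not tested.

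**Figure D4:**
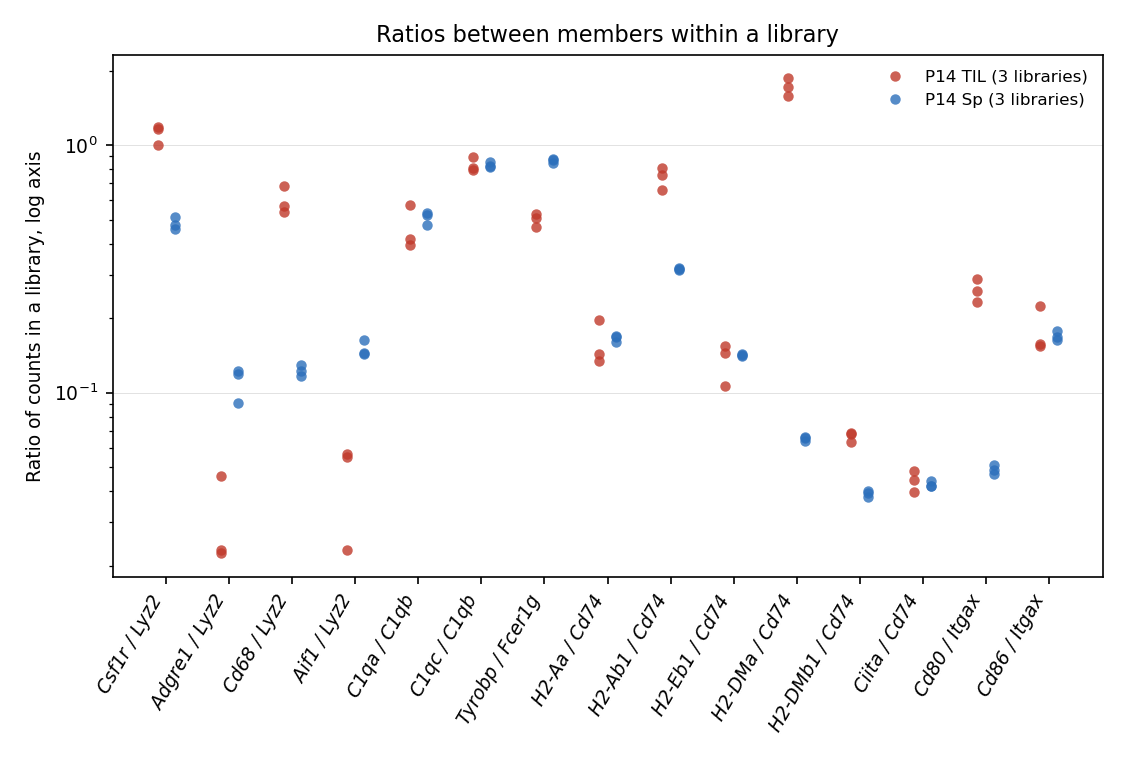
Ratios of counts between pairs of genes within each library, on a log axis, with P14 TIL in red and P14 Sp in blue (3 libraries each). H2-Aa, H2-Eb1 and Ciita over Cd74 and the C1q pairs overlap between tissues, while H2-Ab1 and H2-DMa over Cd74, Csf1r and Cd68 over Lyz2 and Cd80 over Itgax lie higher in tumor.

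The wider MHC class II pathway gave 14 further tested genes of 15 listed. Of these, 10 were lower in tumor, 1 was higher and 3 were not called, at a median log2 fold change of -0.81. All genes tested gave 35.9% lower and 34.8% higher. The lower gene with the smallest p was H2-DMb2, at 1.01 ± 0.0998 CPM in P14 TIL and 62.5 ± 1.62 CPM in P14 Sp (log2 -5.92). The higher one was Nfyb, a subunit of the factor that binds the Y box, at 60.3 ± 6.88 and 53.2 ± 1.39 CPM (log2 0.21, edgeR adjusted p = 0.029). Its partner subunits Nfya and Nfyc, and Rfxap of the X box complex, were the 3 not called and are named after their values were seen. Their log2 fold changes were 0.07, 0.04 and -0.18.

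The 3 C1q chains moved as a block. C1qa, C1qb and C1qc encode the A, B and C chains that assemble into one molecule, and their genes lie side by side on chromosome 4 between 136880129 and 136898803. C1qb stood at 0.987, 0.993 and 0.774 CPM in tumor and 26.8, 27.5 and 26.7 CPM in spleen. C1qc stood at 0.795, 0.784 and 0.691 CPM in tumor and 22.8, 22.4 and 21.9 CPM in spleen, and C1qa at 0.411, 0.392 and 0.442 CPM and 13.9, 13.1 and 14.2 CPM. No library of one tissue came near those of the other, and the log2 fold changes were -4.84 (SE 0.11) for C1qb, -4.85 (SE 0.11) for C1qc and -5.01 (SE 0.14) for C1qa, with an edgeR adjusted p of 3.8e-11 for C1qb. C1qc counts were 0.789 to 0.893 of C1qb counts in tumor and 0.814 to 0.852 in spleen. C1qa counts were 0.395 to 0.571 and 0.474 to 0.531 of C1qb counts. Both pairs of ranges overlapped, so no difference in the balance of the chains was detectable at this depth, where the tumor counts of single chains ran from 15 to 38. The 250 bases before the starts of C1qb (chr4:136886201-136886450, minus strand) and C1qc (chr4:136892915-136893164, minus strand) are given because these neighbors changed together, with matches to the same 3 runs in capitals.
C1qb: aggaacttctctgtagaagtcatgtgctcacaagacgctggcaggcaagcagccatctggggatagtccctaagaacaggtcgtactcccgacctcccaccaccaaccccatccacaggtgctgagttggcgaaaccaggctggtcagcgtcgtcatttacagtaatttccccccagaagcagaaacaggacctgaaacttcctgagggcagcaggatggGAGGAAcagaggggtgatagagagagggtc
C1qc: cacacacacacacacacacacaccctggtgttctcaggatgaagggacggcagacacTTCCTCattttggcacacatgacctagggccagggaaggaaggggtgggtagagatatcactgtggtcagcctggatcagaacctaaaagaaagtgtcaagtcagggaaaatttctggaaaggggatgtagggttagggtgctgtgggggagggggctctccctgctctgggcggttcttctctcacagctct
GAGGAA stands 30 bases before the start of C1qb and, on the other strand (printed as TTCCTC), 193 bases before that of C1qc.

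All 10 macrophage lineage genes were lower in P14 TIL, 8 of them against the 2-fold null. The shares over all genes tested were 35.9% and 9.42%. Adgre1, Ms4a7, Cd163, Mrc1, Aif1 and Vcam1 reached the filter on low counts in spleen alone, so these counts only describe the list. Lyz2, the lysozyme of macrophages and neutrophils, stood at 9.49, 10.1 and 11.1 CPM in tumor and 88.2, 91.1 and 93.9 CPM in spleen. It was 8.73-fold lower in tumor (log2 -3.13, SE 0.07, edgeR adjusted p = 3.6e-11), and its separate value is uncertain because Lyz1 is a near-identical copy. Csf1r, the receptor for the growth factor CSF1 on which macrophages depend, stood at 11.3, 11.8 and 11.1 CPM in tumor and 40.4, 46.7 and 44.5 CPM in spleen. Its difference was smaller, 3.77-fold (log2 -1.92, SE 0.08, adjusted p = 3.0e-09), and its model overlaps Hmgxb3 on the other strand, which was higher in tumor by 0.27 on the log2 scale. Adgre1, which encodes the F4/80 antigen of mature macrophages, stood at 0.439, 0.235 and 0.249 CPM in tumor and 10.8, 8.31 and 11.2 CPM in spleen, 31.9-fold apart. Cd68, a lysosomal glycoprotein, stood at 6.47, 5.78 and 5.94 CPM in tumor and 11.4, 11.2 and 11.0 CPM in spleen. The libraries did not overlap, but at 1.81-fold (log2 -0.85, SE 0.10, adjusted p = 9.1e-06) Cd68 had the smallest difference of all 33 lower genes.

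The remaining macrophage genes ranged from a 2.3-fold difference to near absence from the tumor cells. Cd14, a coreceptor for bacterial lipopolysaccharide, had 22, 25 and 17 counts in tumor and 51, 40 and 57 in spleen (log2 -1.20, SE 0.25, adjusted p = 0.001). Ms4a7, a membrane protein of macrophages, had 8, 5 and 3 counts against 26, 27 and 28. Aif1, an actin-binding protein of macrophages, averaged 0.467 ± 0.215 CPM in tumor and 13.7 ± 0.651 CPM in spleen (log2 -4.83, SE 0.20). Vcam1, an adhesion molecule of red pulp macrophages and endothelium, had 2, 13 and 16 counts in tumor and 781, 711 and 755 in spleen. The first tumor library was thus well below the others, and all were far below spleen, 71.4-fold in the fit. The hemoglobin scavenger receptor gene Cd163 had 0, 1 and 3 counts in tumor and 84, 109 and 73 in spleen, 60.5-fold apart. Without the third tumor library, 1 tumor count remained and the ratio was 182 with a counting interval of 32.4 to 7209. Mrc1, the mannose receptor, had 3, 0 and 0 counts in tumor and 461 in all in spleen, a ratio of 156 (interval 53.0 to 759). Without the first tumor library Mrc1 was at least 105-fold lower. Both genes therefore place the tumor level near the floor and say little about its exact fold.

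Set against Lyz2, the macrophage genes did not keep one proportion. Csf1r counts were 1.0 to 1.19 times those of Lyz2 in tumor and 0.458 to 0.512 times in spleen, and Cd68 counts were 0.536 to 0.682 and 0.117 to 0.129 times. Adgre1 counts went the other way, at 0.0224 to 0.0462 of Lyz2 in tumor and 0.0912 to 0.122 in spleen, and Aif1 at 0.0231 to 0.0567 and 0.144 to 0.163. None of these 4 pairs of ranges overlapped. Over the 28 ratios computed across all roles, 9 were higher in tumor without overlap, 10 were lower and 9 overlapped. Ratios of other gene pairs were not computed. Among single genes tested, 39.4% lay lower and 35.1% higher in tumor without overlap, so these counts only describe the list.

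The 3 genes of Fc receptors and ITAM adaptors were lower by 2.57 to 4.44-fold. Fcer1g, the gamma chain that carries the signal of several Fc receptors, stood at 7.21, 7.45 and 7.49 CPM in tumor and 20.6, 18.2 and 19.3 CPM in spleen (log2 -1.36, SE 0.08, edgeR adjusted p = 7.2e-08). Tyrobp, the adaptor DAP12 of myeloid and NK cell receptors, stood at 3.37, 3.92 and 3.81 CPM in tumor and 17.5, 16 and 16.8 CPM in spleen (log2 -2.15, SE 0.10, adjusted p = 5.7e-09). Neither was near the floor in the tumor cells, and Tyrobp counts were 0.468 to 0.526 of Fcer1g counts there against 0.849 to 0.878 in spleen. Fcgr1, the high-affinity receptor for IgG that uses the gamma chain, had 14, 5 and 18 counts in tumor and 34, 67 and 48 in spleen (log2 -1.99, SE 0.38, adjusted p = 0.00066). NK cells also express Tyrobp. Of the 7 NK cell genes listed, Tyrobp included, 2 were lower, 3 were higher and 2 were not called. All genes tested gave 35.9% lower and 34.8% higher. The sum of the 7 was 29.6 to 36.0 CPM in P14 TIL and 39.7 to 41.6 CPM in P14 Sp. Tyrobp, at 3.70 and 16.8 CPM, was the highest of the 7 in spleen, and Eomes was the highest in tumor. The sums therefore do not show the level of the other NK cell genes. The part of NK cells in the Tyrobp difference was not tested.

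The 2 macrophage enzymes went opposite ways. Cybb, the catalytic subunit of the phagocyte NADPH oxidase, stood at 1.23, 1.33 and 1.88 CPM in tumor and 24.9, 25.4 and 25.8 CPM in spleen, 16.8-fold lower in tumor (log2 -4.07, SE 0.13). Arg1 (chromosome 10, 24915221 to 24927484), the arginase of alternatively activated and tumor macrophages, had 29, 27 and 35 counts in tumor and 4, 6 and 4 in spleen. Its tumor mean of 0.823 ± 0.133 CPM exceeded the spleen mean of 0.128 ± 0.0276 CPM in every library, with a log2 fold change of 2.68 (SE 0.33, edgeR adjusted p = 2.0e-05, and 0.00055 against the 2-fold null). Arg1 was the only one of the 35 to be higher in tumor by over 2-fold, and its level there stayed under 1 CPM.

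Neutrophil genes had few counts in P14 TIL. S100a8 and S100a9, the subunits of calprotectin that fill the neutrophil cytosol, had 2, 2 and 2 and 3, 4 and 3 counts in tumor against 191, 179 and 187 and 250, 231 and 277 in spleen. The log2 fold changes were -6.44 (SE 0.24) and -6.19 (SE 0.24). Csf3r, the receptor of the neutrophil growth factor G-CSF, had 21, 10 and 9 counts in tumor and 104, 139 and 132 in spleen (log2 -3.21, SE 0.27). Cxcr2, the chemokine receptor that draws neutrophils from blood, had 1, 0 and 8 counts in tumor and 52, 35 and 49 in spleen, a log2 fold change of -3.86 (SE 0.56, adjusted p = 7.3e-05). Its value rested on the third tumor library, without which 1 tumor count remained and the ratio was 93 (interval 16.4 to 3699). Without the second tumor library the log2 fold change of Cxcr2 was -3.26, and limma-voom gave -4.59. Of the further neutrophil genes, 11 were tested and called lower, against 35.9% of all genes tested. However, 10 of these 11 reached the filter on low counts in spleen alone, so that count only describes the list. Among them was the granule protein gene Ltf, with 11 counts in tumor and 487 in spleen (log2 -5.42).

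Of the 6 dendritic cell and B7 genes, 5 were lower and Cd80 was higher. The shares over all genes tested were 35.9% lower and 34.8% higher. Flt3, Siglech and Clec9a reached the filter on low counts in spleen alone, so these counts only describe the list. Itgax, the integrin CD11c of dendritic cells, which activated T cells can also carry, stood at 39.5, 41.3 and 37.3 CPM in tumor and 153, 149 and 150 CPM in spleen. It was lower in tumor by 3.75-fold (log2 -1.91, SE 0.06, edgeR adjusted p = 4.3e-10). The markers that divide dendritic cells into kinds were near the floor in the sorted P14 TIL. They were also low in P14 Sp, averaging 0.565 CPM for Clec9a and 0.437 CPM for Siglech. Clec9a, a receptor for dead cells on cross-presenting dendritic cells, had no count in tumor and 28, 20 and 14 in spleen, so it was at least 21-fold lower. Siglech, a marker of plasmacytoid dendritic cells, had no count in tumor and 14, 21 and 13 in spleen, at least 16.2-fold lower. Clec9a shares its span and strand with Clec1b, which had 0 and 1.89 CPM in the tissues. Flt3, the growth factor receptor of the lineage, had 1 count in tumor and 178 in spleen, a ratio of 181 (interval 32.0 to 7174), and without the third tumor library it was at least 40.6-fold lower.

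The 2 ligands of CD28 and CTLA-4 parted ways. Cd86 stood at 6.20, 6.35 and 8.37 CPM in tumor and 25.1, 25.1 and 26.6 CPM in spleen (log2 -1.85, SE 0.11, edgeR adjusted p = 4.2e-08). Cd80 (chromosome 16, 38455561 to 38496335) stood at 10.1, 9.59 and 10.8 CPM in tumor and 7.22, 7.60 and 7.35 CPM in spleen. The lowest tumor library lay above the highest spleen library, with a log2 fold change of 0.49 (SE 0.09, adjusted p = 0.00056). This difference did not pass the 2-fold null. Cd86 counts were 0.154 to 0.224 of Itgax counts in tumor and 0.164 to 0.177 in spleen, while Cd80 counts were 0.232 to 0.288 in tumor and 0.0471 to 0.0510 in spleen.

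Corrected for exon length, taken as the union of all annotated exons of a gene, the order of the genes differed between the tissues. Places within a tissue depend on that length. In plain CPM, H2-Aa stood above H2-Eb1 in P14 Sp, at 168 against 144, but per kilobase it stood below. In P14 TIL, Cd74 and H2-DMa were followed by Fcer1g (8.45 ± 0.17 CPM per kilobase), Itgax (8.20 ± 0.41) and Lyz2 (7.78 ± 0.61), where each neighbor differed by less than the larger of the SDs, and then by Tyrobp (5.55 ± 0.43) and H2-Ab1 (5.53 ± 0.49), which also could not be ordered. In P14 Sp, Cd74 was followed by H2-Ab1 (124 ± 0.84), H2-Eb1 (74.0 ± 1.7), Lyz2 (69.2 ± 2.2) and H2-Aa (44.1 ± 0.87), whose levels differed by more than their SDs. Genes of classical MHC class II chains thus took 3 of the first 5 places in spleen, while H2-Ab1, at place 7, was the highest of them in tumor.

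Further myeloid lists were counted in the same fit, in which 35.9% of all genes were called lower and 34.8% higher. Of 11 tested myeloid transcription factors, 9 were lower in tumor, 1 was higher and 1, Cebpb, was not called, at a median log2 fold change of -2.72. Spi1, which encodes the myeloid and B cell factor PU.1, stood at 0.963 ± 0.072 CPM in P14 TIL and 20.2 ± 1.20 CPM in P14 Sp (log2 -4.35, SE 0.12). Irf8, a factor of macrophages and dendritic cells that is also induced in activated CD8+ T cells, was the higher one, at 415 ± 26.2 and 97.1 ± 1.01 CPM (log2 2.13, SE 0.07, edgeR adjusted p = 3.2e-10). All 10 tested genes of red pulp and marginal zone macrophages were lower, at a median of -5.34, though 7 reached the filter in spleen alone. The iron exporter gene Slc40a1 led them, at 0.117 ± 0.0303 CPM in tumor against 49.8 ± 0.223 CPM in spleen (log2 -8.66). Of 8 tested further dendritic cell genes, of which 5 reached the filter in spleen alone, 7 were lower, led by Wdfy4, which is needed for cross-presentation and is also made by B cells, at 0.182 and 31.4 CPM, and Cd83 was not called. Among 18 complement and Fc receptor partners, 16 were lower and 2 were higher. The higher ones were Ncf1, a cytosolic subunit of the phagocyte oxidase, at 62.9 ± 0.721 and 54.9 ± 0.403 CPM (log2 0.23, edgeR adjusted p = 0.0038), and C3ar1, a complement receptor, at 0.594 ± 0.0528 and 0.282 ± 0.0977 CPM (log2 1.09, adjusted p = 0.0091). The lower gene with the smallest p was the kinase Syk, which binds ITAMs, at 2.0 ± 0.234 CPM in tumor against 63.3 ± 1.71 CPM in spleen (log2 -4.96), and it is also abundant in B cells.

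Genes of monocytes and tumor macrophages went both ways. Of 14 tested, 9 were lower, 4 were higher and 1, Gpnmb, was not called, at a median log2 fold change of -1.07. All genes tested gave 35.9% lower and 34.8% higher, so 4 higher of 14 did not exceed the share of genes at large. The 4 higher ones were Spp1, Nos2, Mmp12 and Plac8, of which all but Spp1 are named after their values were seen. Spp1, the secreted protein osteopontin, stood at 9.70 ± 0.364 CPM in P14 TIL and 0.248 ± 0.0339 CPM in P14 Sp (log2 5.30, SE 0.16, edgeR adjusted p = 3.3e-10). Nos2, the inducible nitric oxide synthase that competes with arginase for its substrate, had 448 counts in tumor and 2 in spleen, a ratio of 221 (interval 60.8 to 1828). Mmp12, the macrophage elastase, had 104 and 4 counts (log2 4.59). Arg1, Spp1, Nos2 and Mmp12 thus all had more counts in each tumor library than in any spleen library, while the C1q chains, Adgre1, Mrc1 and Cd163 had fewer. This grouping was made after the values were seen. Of the 14 tested genes of the list, 3 reached the filter on low counts in tumor alone and 1 in spleen alone. Arg1 reached it in tumor alone, and Adgre1, Mrc1 and Cd163 in spleen alone, so the grouping only describes these genes. The 9 lower genes of the list, of which Sirpa had the smallest p, went the other way. Which cells held these transcripts was not tested.

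**Figure D5:**
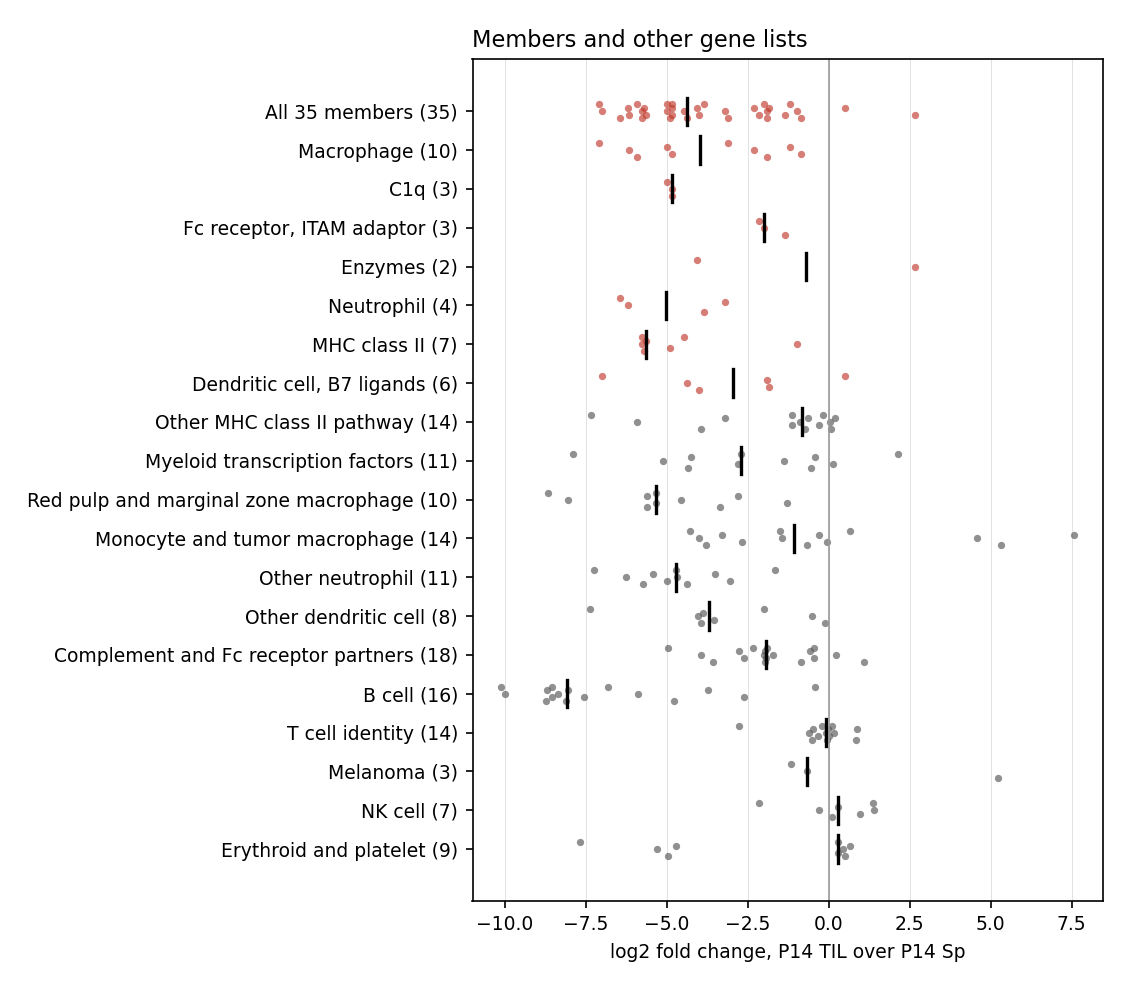
Log2 fold change, P14 TIL over P14 Sp, of each tested gene in the 7 role groups of the 35 (red) and in 12 other lists (grey), with the number tested in parentheses and a bar at the median; genes at 0 in tumor are placed at their bound. The B cell list has the lowest median (-8.07), followed by the MHC class II group (-5.64), the T cell identity list centers near 0, and the monocyte and tumor macrophage list reaches farthest to the right.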

How the data were processed

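Single reads of 50 bases were made from low-input cDNA with a stranded kit, per the labels' protocols. Per the submitters' processing notes, the genome build was mm10 and the tools were STAR 2.3 and featureCounts, after bcl2fastq 2.20.0.422. No source used here gives the annotation release, the strand setting or the treatment of reads with several matches. The deposited values are gene counts in whole numbers, left by the authors without normalization. Symbols and mm10 positions came from GENCODE M21.

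The sample titles gave each library's tissue and thus its group. Counts were tested by edgeR's quasi-likelihood F-test with TMM scaling (version 4.0.16, R 4.3.3) across all genes kept by filterByExpr (minimum count 10, minimum total 15), with Benjamini-Hochberg adjusted p-values at a threshold of 0.05 over 19783 genes. A second call rule, glmTreat, tested against a null of a 2-fold change. Fold changes are tumor over spleen and SE is approximate (the size of the log2 fold change over the root of F). CPM values are means ± SD of 3 libraries. A gene at 0 in a tissue was set to 3 counts over that tissue for a bound, and ratios on 1 to 3 counts carry exact binomial 95% intervals. They cover counting error only, as reads lacking molecular identifiers are not independent molecules. The fit was tested on simulated data. DESeq2 1.42.0, limma-voom (limma 3.58.1), other scalings and filters, a replicate block and leaving out each library were the alternatives.

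The members and all gene lists were chosen with earlier results of these data known. Any member could be named. From every other list the genes with the smallest p in each direction and the highest CPM in each tissue could be named, with others where a count of 5 or fewer is spelled out. The text names only some of the genes this rule allows, and 1 result is not reported here. Of the other lists, erythroid and platelet genes gave 4 lower and 5 higher of 9, where all genes tested gave 35.9% and 34.8%.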

Additional observations from a re-analysis of the deposited data

How the results depend on the processing

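The 33 lower and 2 higher calls were the same in every alternative that tested all 35 genes, the largest adjusted p of any being 0.0065. With a minimum count of 50, 27 of the genes were tested, 26 lower and 1 higher, since Arg1 was not tested there. Against the 2-fold null the lower count ran from 29 to 30 when libraries were left out in turn and was 24 at that minimum count. The median log2 fold change of the 35 ran from -4.50 to -4.84 with libraries left out. Upper-quartile scaling gave -4.88 and moved the median of all genes to -0.07, and without a filter that median was -0.15. The spleen to tumor ratio of their summed share was 13.2, 13 to 13.2 with libraries left out, and 11.8 per count of the T cell identity genes. With the replicate number as a block, 33 were lower, 2 higher and 30 lower by over 2-fold, at a median of -4.83, and no call changed; over all genes, 6746 were higher and 7026 lower. The numbers were not taken to pair the samples, since deviations of equal-numbered libraries correlated at -0.00079, 0.016 and 0.0024. Depth limits Cd163, Mrc1, Cxcr2, Flt3, Siglech and Clec9a, whose fitted values moved by over 1.5 times under some alternative.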
